A study of Mus musculus with 16 samples.

Results

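Lungs of mice given 6-OHDA were compared directly with lungs of mice given BIBO3304, with no cancer cells seeded in either group and without use of the vehicle lungs. The study's title concerns sympathetic nerves and NPY-NPY1R signalling in the seeding of the lung by pancreatic cancer, and the direct comparison asks where 2 ways of interfering with that axis leave the lung in different states. 6-OHDA (6-hydroxydopamine) is a neurotoxin taken up by noradrenergic nerve endings, and BIBO3304 is an antagonist of the neuropeptide Y receptor Y1. The cells were chosen by the treatment and seeding state in the deposited cell table: 24940 of 80449 cells in 6 of 15 samples met the rule, with 11628 cells from 3 6-OHDA lungs and 13312 cells from 3 BIBO3304 lungs. The 6-OHDA samples held 3963, 4144 and 3521 cells, and the BIBO3304 samples 4145, 3888 and 5279 cells. A second pair of groups, 2 lungs given 6-OHDA and 2 given BIBO3304, had also received pancreatic ductal adenocarcinoma (PDAC) cells, and it is used only where the same contrast is set beside the first. In all groups whole lungs were dissociated, red cells were lysed and live cells were sorted, so the sort limits which cells could be counted. The sources used here state no strain, age, sex, dose or time of collection. Nor do they say whether numbered samples came from different mice, and p-values here refer to sample-to-sample spread alone.

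Sympathetic nerves of the lung run mainly along its larger vessels and airways, and they release noradrenaline together with neuropeptide Y. Noradrenaline acts on alpha and beta adrenergic receptors and is cleared by the noradrenaline transporter, the product of Slc6a2, which is also the route by which 6-OHDA enters a nerve ending. 6-OHDA thus removes the nerve endings with all that they release, while BIBO3304 leaves the nerves in place and blocks 1 receptor of 1 of their transmitters.

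Transcripts were counted per gene and cell by split-pool barcoding, and for each type the counts of a sample were added up. The 6-OHDA samples held 12195761, 11020282 and 10003796 transcripts, and the BIBO3304 samples 15048517, 26555562 and 25185750. The median cell of the 6-OHDA samples held 2223, 2078 and 2123 transcripts, against 2631, 4846.5 and 3534 in the BIBO3304 samples, so depth per cell went with the group. In the lungs with PDAC cells the order was the other way round, with 2559 and 2729 transcripts per median cell in 6-OHDA samples and 2417 and 1623 in BIBO3304 samples. Of 75 first-round barcode wells, 0 were shared between samples, so samples shared no cell barcode. Of 102 marker genes of the deposited cell types, 91 were highest in their own type in the 6 samples. In large-vessel endothelium the markers Efnb2, Gja5 and Sox17 were highest elsewhere, and Fn1, Ccr2 and Cd209a were highest in the interstitial macrophages. Cx3cr1, a marker of the interstitial macrophages, was highest in peribronchial fibroblasts.

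The 6-OHDA lungs held a larger share of club cells, the secretory cells of the airway lining, and of neutrophils than the BIBO3304 lungs. They held a smaller share of large-vessel endothelium, of gCap endothelium, which lines the general alveolar capillaries, and of peribronchial fibroblasts. These 5 of 21 cell types passed the test on cell numbers, and in each of them the 2 groups did not overlap. Each had an exact two-sided permutation p of 0.1, the smallest that 3 against 3 samples can give. Alveolar macrophages and aCap endothelium, of the thin gas-exchange capillaries, had the same exact permutation p and no overlap, but did not pass.

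Neutrophils made up 4.14, 3.26 and 2.61% in the 6-OHDA lungs, against 2.10, 1.59 and 2.18% in the BIBO3304 lungs. The log2 ratio of shares was 0.77 ± 0.23 (edgeR quasi-likelihood test, standard error after the sign, adjusted p = 0.0253). Club cells averaged 0.274 ± 0.0345% in the 6-OHDA lungs and 0.0665 ± 0.0132% in the BIBO3304 lungs (SD, n = 3 each), with a log2 ratio of 1.98 ± 0.45 and an adjusted p of 0.00556 in edgeR. That share rested on 10, 13 and 9 club cells in the 6-OHDA lungs, against 3, 2 and 4 in the BIBO3304 lungs. These are the smallest cell numbers behind any of the 5 shares.

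On the side of the vessels, gCap endothelium made up 10.8, 9.99 and 11.9% in the 6-OHDA lungs, against 14.7, 17.4 and 17.1% in the BIBO3304 lungs. Its log2 ratio was -0.59 ± 0.20 (edgeR adjusted p = 0.036). Large-vessel endothelium averaged 1.65 ± 0.345% in the 6-OHDA lungs and 2.93 ± 0.443% in the BIBO3304 lungs (SD, n = 3 each), a log2 ratio of -0.82 ± 0.23 with an edgeR adjusted p of 0.0217. Every 6-OHDA lung was lower than every BIBO3304 lung in both. Peribronchial fibroblasts, which lie around the airways, averaged 1.12 ± 0.235% in the 6-OHDA lungs and 1.82 ± 0.273% in the BIBO3304 lungs (SD, n = 3 each; log2 ratio -0.70 ± 0.25, edgeR adjusted p = 0.0427).

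The other 16 types did not pass. Alveolar macrophages, the resident phagocytes of the air spaces, had shares of 24.5, 21.8 and 20.7% in the 6-OHDA lungs, against 19.9, 17.5 and 16.1% in the BIBO3304 lungs. These did not overlap, but the edgeR adjusted p was 0.216. Shares of aCap endothelium were 2.25, 2.85 and 3.04% in the 6-OHDA lungs, against 3.38, 3.24 and 3.86% in the BIBO3304 lungs. They did not overlap either, with the same edgeR adjusted p of 0.216. Interstitial macrophages and monocytes had log2 ratios of 0.65 ± 0.27 and 0.68 ± 0.28, each with an edgeR adjusted p of 0.0717, and their groups overlapped. AT1 cells, the flat cells of the alveolar wall, had a log2 ratio of -0.85 ± 0.38 (edgeR adjusted p = 0.1). Shares add up to the whole of a sample, so they are not independent of each other. Without 6-OHDA sample 1 or without BIBO3304 sample 1, club cells were the 1 type that passed, and without 6-OHDA sample 2 or BIBO3304 sample 2 there were 3 such types.

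**Figure D1:**
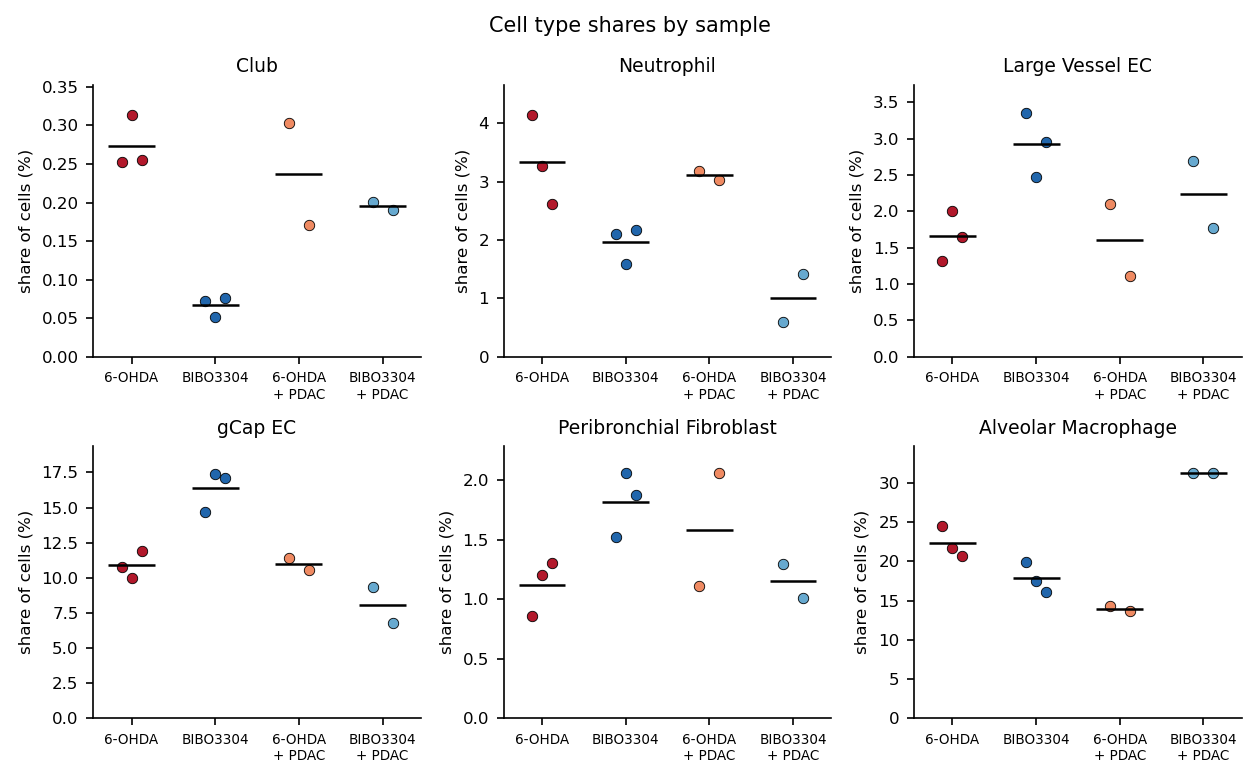
Share of each sample's cells (percent, y axis) in 6 cell types, by group (x axis); points are samples and lines group means. In the lungs without PDAC cells the 3 6-OHDA points and the 3 BIBO3304 points do not overlap in any of the 6 types; for alveolar macrophages and gCap endothelium the order of the groups is opposite in the lungs with PDAC cells, where the points of club cells, large-vessel endothelium and peribronchial fibroblasts overlap.

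Few genes passed the test on gene expression. Across 19 cell types with enough cells, 87527 tests of a gene in a type gave 67 calls at an adjusted p under 0.05, which is 0.0765% of tests. Of these, 37 were higher in 6-OHDA lungs (0.0423%) and 30 were lower (0.0343%). The calls fell in 11 types, and 42 of them were in interstitial macrophages, where they made up 1.06% of 3948 genes. The 8 types with no call had 70 to 827 genes with an unadjusted p under 0.05, and 0 to 17 calls by DESeq2. The 70 were among 986 genes tested in smooth muscle cells or pericytes, and the 827 among 7696 in gCap endothelium. Over all types, 8.84% of tests had an unadjusted p under 0.05, so a lack of calls does not show a lack of difference. Without scaling beyond the library total, 221 calls were higher and 55 lower, and DESeq2 gave 82 higher and 103 lower, so the balance of directions depended on the method. Single samples moved the count: there were 9 calls without 6-OHDA sample 2, 31 without BIBO3304 sample 1, 41 without 6-OHDA sample 3, 138 without 6-OHDA sample 1 and 245 without BIBO3304 sample 3.

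Genes of the circadian clock made up 7 of the 25 calls outside interstitial macrophages. The clock runs in most cells of the body: Arntl (BMAL1) pairs with CLOCK or its relative NPAS2 and switches on Per, Cry, Nr1d1, Dbp and Bhlhe41, whose products act back on the pair or on downstream genes. Arntl and Npas2 themselves are switched on through ROR elements, which NR1D1 and NR1D2 occupy to silence them. Among these calls, Arntl and Npas2 were lower in fibroblasts of 6-OHDA lungs than of BIBO3304 lungs, and Npas2 also in AT2 cells. Dbp and Bhlhe41 were higher in alveolar fibroblasts.

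The promoter windows of the clock genes called in alveolar fibroblasts are shown because 4 of the 7 calls in that type are clock genes. They run from 250 bases before to 50 bases after the annotated start, 5′ to 3′, from RefSeq on GRCm38.p6. A window was found for each of the 4 genes, and 3 are shown: Npas2 (chr1:39194022-39194321, plus strand), Arntl (chr7:113207215-113207514, plus strand, the first of 2 windows) and Bhlhe41 (chr6:145865371-145865670, minus strand). Capitals mark matches on either strand to a fixed form of each element: the E-box CACGTG, the ROR element AGTAGGTNA or the D-box TTATGTAA. Other forms were not sought, so a window without capitals may still hold one. Of 32851 promoter windows, 7.15% held that form of the E-box, 0.591% that of the ROR element and 0.938% that of the D-box.
Npas2: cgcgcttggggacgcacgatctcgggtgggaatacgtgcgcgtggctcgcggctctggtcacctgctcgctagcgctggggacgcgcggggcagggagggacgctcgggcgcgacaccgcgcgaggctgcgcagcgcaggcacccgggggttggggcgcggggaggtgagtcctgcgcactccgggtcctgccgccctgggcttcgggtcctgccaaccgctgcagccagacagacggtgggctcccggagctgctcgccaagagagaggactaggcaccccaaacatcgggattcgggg
Arntl: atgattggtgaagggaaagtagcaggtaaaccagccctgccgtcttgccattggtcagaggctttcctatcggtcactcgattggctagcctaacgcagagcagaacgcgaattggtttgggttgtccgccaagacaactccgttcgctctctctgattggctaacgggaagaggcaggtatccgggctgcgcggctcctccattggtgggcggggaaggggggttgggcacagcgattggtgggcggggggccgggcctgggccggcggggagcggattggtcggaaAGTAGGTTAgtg
Bhlhe41: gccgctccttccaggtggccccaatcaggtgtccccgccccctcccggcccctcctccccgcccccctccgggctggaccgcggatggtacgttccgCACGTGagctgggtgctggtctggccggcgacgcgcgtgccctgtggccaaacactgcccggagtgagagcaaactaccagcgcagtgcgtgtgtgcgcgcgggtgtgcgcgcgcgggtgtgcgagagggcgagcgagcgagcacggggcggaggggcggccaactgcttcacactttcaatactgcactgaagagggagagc
The Arntl window holds 1 match to the ROR element, beginning at base 289 of the window, and the Bhlhe41 window holds 1 E-box, beginning at base 98. The windows of Npas2 and Dbp hold none of these letters.

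In alveolar fibroblasts, Npas2, a partner of BMAL1, had 11.3, 6.21 and 4.03 CPM in the 6-OHDA lungs, against 67.2, 55.3 and 112 CPM in the BIBO3304 lungs. The groups were far apart, with a log2 fold change of -3.42 ± 0.34 (edgeR adjusted p = 0.00328). The call was lost without 6-OHDA sample 2 or 3, with an edgeR adjusted p of up to 0.0575. In AT2 cells, the surfactant-making cells of the alveolus, the same gene had 38.0, 21.0 and 22.3 CPM in the 6-OHDA lungs, against 108, 102 and 126 CPM in the BIBO3304 lungs. There the log2 fold change was -2.07 ± 0.22 with an edgeR adjusted p of 0.000214, and the call remained with each of the 6 samples left out in turn. Peribronchial fibroblasts had 36.5, 56.8 and 59.4 CPM in the 6-OHDA lungs, against 237, 262 and 234 CPM in the BIBO3304 lungs, again without overlap (log2 fold change -2.23 ± 0.42, edgeR adjusted p = 0.0366). In that type the 6-OHDA values stood on 2, 4 and 4 counts, and the call was lost without any 1 of the 6-OHDA samples and was not made by DESeq2.

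In alveolar fibroblasts, Arntl had 32.0, 27.3 and 16.9 CPM in the 6-OHDA lungs, against 90.7, 95.1 and 127 CPM in the BIBO3304 lungs (log2 fold change -2.03 ± 0.22, edgeR adjusted p = 0.00328). Adventitial fibroblasts, which sheathe vessels and airways, had 27.4, 40.8 and 15.4 CPM in the 6-OHDA lungs, against 89.3, 107 and 131 CPM in the BIBO3304 lungs. All 3 6-OHDA lungs were below all 3 BIBO3304 lungs in both types, and in adventitial cells the log2 fold change was -1.90 ± 0.28 (edgeR adjusted p = 0.0245). The adventitial call was lost without 6-OHDA sample 1 or 3, and the alveolar call without 6-OHDA sample 2, where the edgeR adjusted p was 0.0575.

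On the repressor and output side, alveolar fibroblasts had 9.10, 14.5 and 27.0 CPM in the 6-OHDA lungs, against 1.46, 3.47 and 1.31 CPM in the BIBO3304 lungs for Dbp, a D-box transcription factor. For Bhlhe41 (DEC2), which represses E-box genes, they had 8.37, 11.6 and 16.9 CPM in the 6-OHDA lungs, against 3.40, 1.89 and 2.62 CPM in the BIBO3304 lungs. Neither pair of groups overlapped, and the log2 fold changes were 2.95 ± 0.45 for Dbp and 2.24 ± 0.35 for Bhlhe41, each with an edgeR adjusted p of 0.0451. Both calls were near the threshold: that of Dbp was lost without 4 of the 6 samples taken singly (6-OHDA 2 or 3, BIBO3304 1 or 3) and that of Bhlhe41 without 5 (any but BIBO3304 2).

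Outside these calls, the clock genes were followed over all types, a choice made after their values were seen. Npas2 was lower in 5 of the 6 types in which it passed the filter on low counts, and in those 5 the groups did not overlap. Across all tests, all 6-OHDA samples lay below all BIBO3304 samples in 7.24% and above them in 6.83%. Arntl was lower in 9 of 13 types, without overlap in 6: alveolar, adventitial and peribronchial fibroblasts, AT2 cells, large-vessel endothelium and monocytes. In T cells, B cells, NK cells and interstitial macrophages its log2 fold change lay at 0.08, 0.06, 0.59 and 0.09. Nr1d1 (REV-ERB alpha) was higher in 6 of 6 types with log2 fold changes of 0.63 to 1.31, Nr1d2 (REV-ERB beta) in 15 of 17 and Tef, a relative of Dbp, in 5 of 5, all short of the threshold in every type. Dbp passed the filter in 1 type and Bhlhe41 in 2, where the log2 fold changes of Bhlhe41 were 2.24 and 0.05. Bhlhe40, another repressor, was lower in 11 of 16 types. Per1 was higher in 8 of 17 types and lower in 9, an order that turned round without scaling beyond the total, and Per2 was higher in 4 of 6. Clock was lower in 10 of 16 types, Nfil3 in 10 of 12 and Cry1 in 5 of 9 (4 of 9 without scaling beyond the total), while Cry2 was higher in 10 of 13. The list of clock activators had 5 calls lower and 0 higher among 75 tests (DESeq2 0 higher and 6 lower), and the list of clock repressors and outputs 2 higher and 0 lower among 94 (DESeq2 3 higher and 0 lower). Since the time of collection is not given, treatment and time of day cannot be told apart here.

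**Figure D2:**
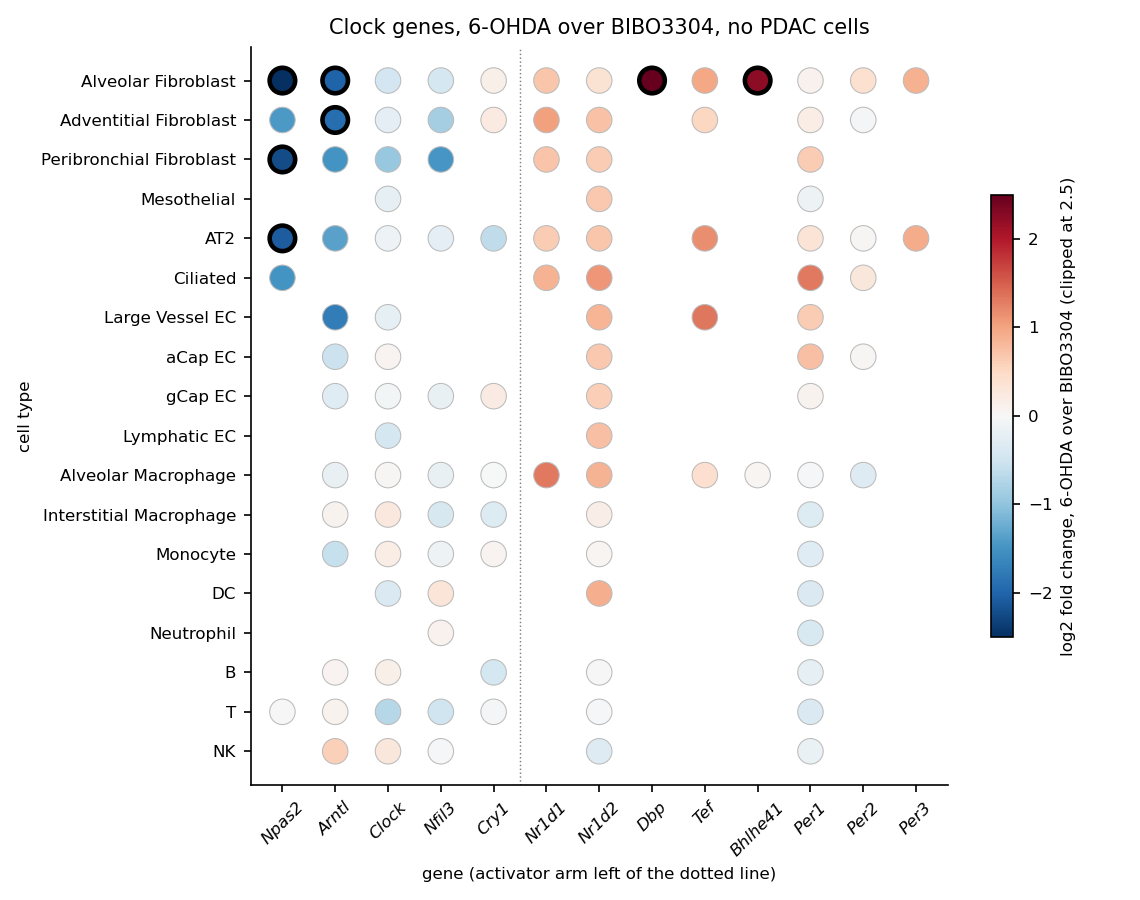
Log2 fold change (colour, 6-OHDA over BIBO3304) of 13 clock genes (x axis) in the cell types that could be tested (y axis); black rings mark an edgeR adjusted p under 0.05 and an empty place means that the gene did not pass the filter there. Npas2 and Arntl are blue (lower) in the fibroblasts and AT2 cells, while Arntl is near white in T and B cells.

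The other calls in alveolar fibroblasts were Rnf144a, an E3 ubiquitin ligase, Prom1 (prominin 1) and Tnfrsf19 (TROY), a receptor of the tumour necrosis factor family. Rnf144a had 39.7, 34.8 and 23.8 CPM in the 6-OHDA lungs, against 83.0, 94.1 and 126 CPM in the BIBO3304 lungs. Tnfrsf19 had 64.4, 60.9 and 64.5 CPM in the 6-OHDA lungs, against 115, 141 and 124 CPM in the BIBO3304 lungs. Prom1 averaged 27.3 ± 1.60 CPM in 6-OHDA lungs and 62.5 ± 10.9 CPM in BIBO3304 lungs (SD, n = 3 each). All 3 genes were lower without overlap, with log2 fold changes of -1.62 ± 0.21, -1.001 ± 0.13 and -1.20 ± 0.17 and edgeR adjusted p of 0.0148, 0.0153 and 0.0255 in that order. Tnfrsf19 and Prom1 were taken up after their values were seen. The Rnf144a call was lost without 6-OHDA sample 2 or 3, and those of Tnfrsf19 and Prom1 without any 1 of the 6-OHDA samples or without BIBO3304 sample 3.

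Slc6a2, the noradrenaline transporter through which 6-OHDA is taken up, was lower in the large-vessel endothelium of 6-OHDA lungs. Lung endothelium is known to carry this transporter and to clear noradrenaline from blood. Slc6a2 had 164, 129.8 and 109 CPM in the 6-OHDA lungs, against 526, 545 and 490.0 CPM in the BIBO3304 lungs, and the groups were far apart. The log2 fold change was -1.95 ± 0.24 (edgeR adjusted p = 0.00267) and the call remained without each sample in turn with an adjusted p of up to 0.037. It was lost with libraries thinned to the smallest. The values rested on 22, 19 and 13 counts in the 6-OHDA lungs and on 208, 245 and 211 counts in the BIBO3304 lungs, from 52, 83 and 58 cells and from 139, 96 and 156 cells. Slc6a2 passed the filter in no other cell type. Large-vessel endothelium also took a smaller share of cells in these lungs, and whether a change in the makeup of that class goes with the level of Slc6a2 was not tested.

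No adrenergic receptor passed the edgeR test. Adra1a, the alpha 1A receptor, was lower without overlap but short of the threshold: alveolar fibroblasts had 454, 365 and 295 CPM in the 6-OHDA lungs, against 615, 719 and 746 CPM in the BIBO3304 lungs (log2 fold change -0.90 ± 0.16, edgeR adjusted p = 0.0978). For Adrb3, the beta 3 receptor, the same cells had 29.5, 25.7 and 23.4 CPM in the 6-OHDA lungs, against 35.9, 42.9 and 31.9 CPM in the BIBO3304 lungs, also without overlap (edgeR adjusted p = 0.345). For Adrb1, the beta 1 receptor, gCap endothelium had 120.4, 112 and 99.9 CPM in the 6-OHDA lungs, against 91.8, 86.5 and 80.7 CPM in the BIBO3304 lungs. That is higher without overlap but with an edgeR adjusted p of 0.429. Maoa in gCap endothelium and Maob in peribronchial fibroblasts, both enzymes that degrade noradrenaline, overlapped between groups with log2 fold changes of -0.03 and -0.15. The adrenergic list as a whole had 1 call by edgeR, Slc6a2, among 34 tests of 9 genes (DESeq2 0 higher and 2 lower), with a median log2 fold change of -0.14 beside 0.00432 over all tests.

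Of the neuropeptide Y system, only Npy1r, the receptor that BIBO3304 blocks, and Dpp4, the protease that trims neuropeptide Y, passed the filter on low counts in any type, with 0 calls among 11 tests by edgeR, 0 by DESeq2 and 0 with an unadjusted p under 0.05. Npy1r was testable in 1 type, alveolar fibroblasts, where its log2 fold change was -0.24, or 0.31 with libraries thinned to the smallest. Dpp4 was highest in mesothelial cells, which cover the lung surface, with 207, 311 and 224 CPM in the 6-OHDA lungs, against 477, 256 and 359 CPM in the BIBO3304 lungs. Those groups overlapped (log2 fold change -0.51 ± 0.34, edgeR adjusted p = 0.676).

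**Figure D3:**
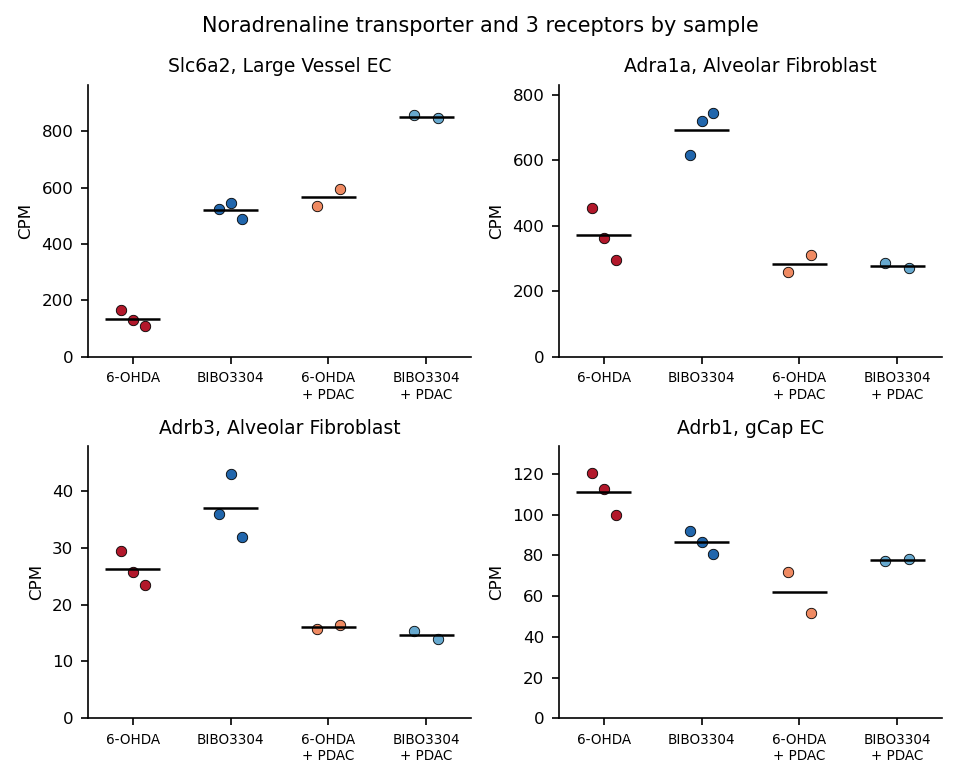
Level (CPM, y axis) by group (x axis) of Slc6a2, Adra1a, Adrb3 and Adrb1, each in the cell type with its highest level; points are samples and lines group means. Slc6a2 is the 1 gene of the 4 that passed the test without PDAC cells; levels with and without PDAC cells were scaled separately.

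Interstitial macrophages, the macrophages of the lung's connective tissue around vessels and airways, held most of the calls: 25 genes were higher and 17 lower in 6-OHDA lungs. Without 6-OHDA sample 2, 6-OHDA sample 3 or BIBO3304 sample 2, edgeR made 0 calls in the type (378, 458 and 427 genes with an unadjusted p under 0.05). It made 5 calls without BIBO3304 sample 1 and 109 without 6-OHDA sample 1. DESeq2 called 51 genes in this type, 24 higher and 27 lower, and no called gene changed direction in any alternative.

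The class held 124, 196 and 78 cells in the 6-OHDA lungs and 101, 61 and 128 cells in the BIBO3304 lungs. Its median cell had 2224.5, 2403.5 and 1879 transcripts in the 6-OHDA lungs, against 2402, 4823 and 3691 in the BIBO3304 lungs. With libraries thinned to the smallest of the type, 3 calls were left, all higher.

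Among the 25 genes higher in 6-OHDA lungs, Gngt2, a G protein gamma subunit, changed most. It had 30.5, 56.3 and 44.6 CPM in the 6-OHDA lungs, against 2.75, 5.45 and 9.92 CPM in the BIBO3304 lungs, with a log2 fold change of 2.80 ± 0.53 (edgeR adjusted p = 0.0296). These levels stand on 10, 30 and 9 counts in the 6-OHDA lungs and on 1, 2 and 4 in the BIBO3304 lungs. Rab27a, a GTPase of vesicle secretion, and Dock5, an activator of RAC, had log2 fold changes of 2.62 ± 0.51 and 2.46 ± 0.41 (edgeR adjusted p = 0.0347 and 0.0228). All 3 genes were higher in each 6-OHDA lung than in any BIBO3304 lung.

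Fibronectin (Fn1), which binds cells to matrix, had 858, 3745 and 3099 CPM in the 6-OHDA lungs, against 369, 787 and 699 CPM in the BIBO3304 lungs. Thrombospondin 1 (Thbs1), another matrix glycoprotein, had 394, 1593 and 1094 CPM in the 6-OHDA lungs, against 151, 321 and 364 CPM in the BIBO3304 lungs. Neither gene overlapped, and the log2 fold changes were 2.05 ± 0.43 and 1.88 ± 0.42 (edgeR adjusted p = 0.0394 and 0.0437). DESeq2 called neither of them. In both genes, 6-OHDA sample 1 lay close to the BIBO3304 lungs and the other two 6-OHDA samples far above. Tgm2, a transglutaminase that crosslinks proteins, had 431, 483 and 604 CPM in the 6-OHDA lungs, against 168, 139 and 231 CPM in the BIBO3304 lungs. Here the 3 6-OHDA lungs lay close together, and the log2 fold change was 1.49 ± 0.25 (edgeR adjusted p = 0.0228).

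Plcb1, a phospholipase C beta that acts downstream of receptors coupled to Gq, had 367, 826 and 658 CPM in the 6-OHDA lungs, against 116, 92.6 and 186 CPM in the BIBO3304 lungs and the smallest adjusted p of the type (log2 fold change 2.23 ± 0.33, edgeR adjusted p = 0.0222). Olr1, the LOX-1 receptor for oxidised lipoprotein, had 88.6, 404 and 297 CPM in the 6-OHDA lungs, against 68.8, 54.5 and 66.9 CPM in the BIBO3304 lungs. It was higher in all 3 6-OHDA lungs, but 6-OHDA sample 1 exceeded the highest BIBO3304 lung only narrowly. Grk5, a kinase that desensitises G protein-coupled receptors, had 321, 327 and 351 CPM in the 6-OHDA lungs, against 124, 152 and 176 CPM in the BIBO3304 lungs, with a log2 fold change of 1.14 ± 0.24 (edgeR adjusted p = 0.0394). The lipid enzymes Acaca, which makes malonyl-CoA, and Elovl5, a fatty acid elongase, had log2 fold changes of 2.003 ± 0.42 and 1.42 ± 0.30 (edgeR adjusted p = 0.0394 and 0.0411). Tgm2 and the genes of this paragraph were taken up after their values were seen.

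Adgre4, an adhesion receptor of Ly6c-low monocytes in the mouse, had 125, 175 and 84.2 CPM in the 6-OHDA lungs, against 49.5, 30.0 and 57.0 CPM in the BIBO3304 lungs, and Trem3, a myeloid receptor of the mouse, had 85.5, 115 and 119 CPM in the 6-OHDA lungs, against 33.0, 27.2 and 49.6 CPM in the BIBO3304 lungs. Both were higher without overlap (log2 fold change 1.53 ± 0.34 and 1.52 ± 0.33, edgeR adjusted p = 0.0437 and 0.0412). The remaining calls in this direction were Ms4a8a, Cgnl1, Fam20c, Fam20a, Ccdc88c, Rarb, Setbp1, Lrrk2, Dgkg, Tent5a, Apbb1ip and Atp1b3. Their log2 fold changes lay between 1.14 for Atp1b3, a subunit of the sodium pump, and 2.42 for Ms4a8a, a membrane protein of the MS4A family. Among them, Rarb is a retinoic acid receptor, Lrrk2 a large kinase of the endolysosomal system and Fam20c the kinase of secreted proteins. The genes of this paragraph were taken up after their values were seen.

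Of the 17 genes lower in 6-OHDA lungs, Mmp13 (collagenase 3) had the largest fold change. It stood on 2, 2 and 0 counts in the 6-OHDA lungs, against 16, 16 and 43 in the BIBO3304 lungs, which gave 6.11, 3.76 and 0 CPM in the 6-OHDA lungs, against 44.0, 43.6 and 107 CPM in the BIBO3304 lungs. The fitted log2 fold change of -4.005 ± 0.65 (edgeR adjusted p = 0.0228) therefore rests on few counts. Dcbld2, a membrane receptor, had 3, 3 and 2 counts in the 6-OHDA lungs and 21, 27 and 15 in the BIBO3304 lungs. Pdgfc, a growth factor for mesenchymal cells, had 27.5, 7.51 and 39.6 CPM in the 6-OHDA lungs, against 118, 106 and 154 CPM in the BIBO3304 lungs. Both were lower without overlap (log2 fold change -2.82 ± 0.49 and -2.56 ± 0.43, edgeR adjusted p = 0.0228 and 0.0228).

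Selenop, a secreted carrier of selenium, had 153, 180.3 and 233 CPM in the 6-OHDA lungs, against 471, 482 and 309.9 CPM in the BIBO3304 lungs. Stab1, a scavenger receptor of resident macrophages, had 104, 75.1 and 94.1 CPM in the 6-OHDA lungs, against 289, 215 and 159 CPM in the BIBO3304 lungs. Slco2b1, an organic anion transporter, had 33.6, 28.2 and 24.8 CPM in the 6-OHDA lungs, against 85.3, 196 and 71.9 CPM in the BIBO3304 lungs. All 3 were lower without overlap, with log2 fold changes of -1.17 ± 0.26, -1.29 ± 0.29 and -1.996 ± 0.42 and edgeR adjusted p of 0.0437, 0.046 and 0.0394 in that order.

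Socs3, a feedback inhibitor of cytokine signalling through STAT3, had 247, 216 and 183 CPM in the 6-OHDA lungs, against 388, 476 and 471 CPM in the BIBO3304 lungs. Clec12a, an inhibitory lectin receptor, averaged 20.4 ± 6.47 CPM in 6-OHDA lungs and 78.0 ± 14.1 CPM in BIBO3304 lungs (SD, n = 3 each). Their log2 fold changes were -1.04 ± 0.23 and -1.89 ± 0.38 (edgeR adjusted p = 0.0437 and 0.0374). The remaining calls were Mdfic, Blnk, Lrp6, Fchsd2, Dlc1, Tenm4, St18, Plekhg5 and Fhad1, from -1.003 for Mdfic to -2.41 for Fhad1. Blnk is an adaptor of immune receptor signalling and Lrp6 a Wnt coreceptor. Selenop and the genes named after it were taken up after their values were seen.

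Lists of macrophage and monocyte genes, added after values were seen, are given as a description of the same samples. All 15 testable genes of the resident interstitial list, C1qa and Lyve1 among its members, had a log2 fold change below 0, with a median of -0.92 beside 0.02 over all genes of the type, and 3 of them are the calls Selenop, Stab1 and Slco2b1. The summed level of the list was 2132, 2085 and 2282 CPM in the 6-OHDA lungs, against 4081, 4111 and 3242 CPM in the BIBO3304 lungs, without overlap. All 7 testable genes of the Ly6c-low monocyte list were above 0, with a median of 1.10, and 2 are the calls Gngt2 and Adgre4. That list summed to 663, 964 and 748 CPM in the 6-OHDA lungs, against 457, 362 and 508 CPM in the BIBO3304 lungs.

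Genes of MHC class II presentation, the display of peptides to helper T cells, summed to 8795, 5958 and 6842 CPM in the 6-OHDA lungs, against 12129, 12209 and 10937 CPM in the BIBO3304 lungs, lower without overlap, with 8 of 9 genes below 0 and 0 calls by edgeR (4 with an unadjusted p under 0.05, all lower). The Ly6c-high monocyte list, which holds the calls Fn1 and Trem3, summed to 1759.5, 4675 and 4149 CPM in the 6-OHDA lungs, against 1577, 2069 and 1745 CPM in the BIBO3304 lungs, where 6-OHDA sample 1 lay among the BIBO3304 lungs. Of these sums, Fn1 alone gave 858, 3745 and 3099 CPM in the 6-OHDA lungs, against 369, 787 and 699 CPM in the BIBO3304 lungs. The sums therefore do not show a rise of the list's other members. A list of macrophages of the pleural and peritoneal cavities, which holds Rarb, summed to 357, 2376 and 1297 CPM in the 6-OHDA lungs, against 553, 885 and 538 CPM in the BIBO3304 lungs. Here too 6-OHDA sample 1 lay apart from the other two. Alveolar macrophage markers summed to 2251, 1758 and 2144 CPM in the 6-OHDA lungs, against 3252, 5247 and 3686 CPM in the BIBO3304 lungs. Over the 14 types with at least 3 testable genes of that list, its median log2 fold change was above 0 in 13 and at lowest -0.02. Its sums therefore do not show a fall of most of its members. No marker of these lists was at 0 in all 6 samples. Whether the makeup of the class, its depth per cell or its level of expression lies behind the 42 calls was not tested.

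**Figure D4:**
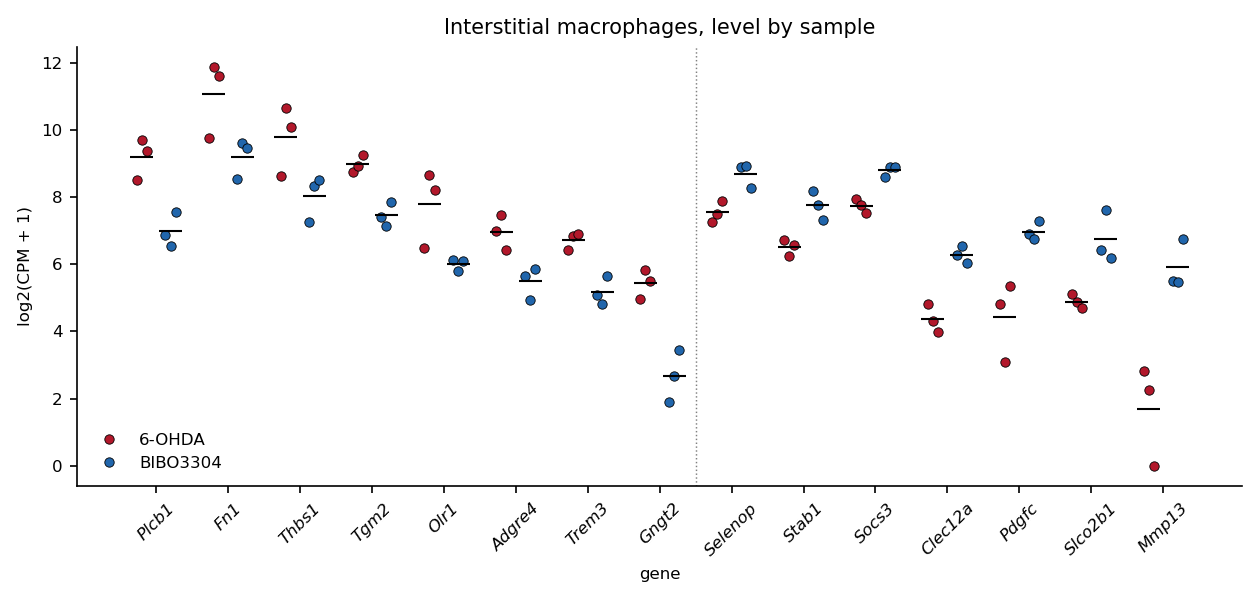
Level of 15 called genes in interstitial macrophages as log2(CPM + 1) (y axis), by gene (x axis); points are samples, lines group means, and the dotted line separates genes higher from genes lower in 6-OHDA lungs. The groups do not overlap for any of the 15 genes, and for Fn1, Thbs1 and Olr1 the lowest 6-OHDA sample lies close to the BIBO3304 samples.

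In B cells, 4 genes were called and all were higher in 6-OHDA lungs. Slc15a2, a transporter of small peptides, had 101, 89.6 and 60.2 CPM in the 6-OHDA lungs, against 8.91, 11.6 and 3.41 CPM in the BIBO3304 lungs. Rbm47, an RNA-binding protein, had 262, 179 and 327 CPM in the 6-OHDA lungs, against 74.2, 30.1 and 75.1 CPM in the BIBO3304 lungs, and Trem3 had 183, 186 and 129 CPM in the 6-OHDA lungs, against 32.7, 4.64 and 51.2 CPM in the BIBO3304 lungs. None overlapped, with log2 fold changes of 3.29 ± 0.48, 2.13 ± 0.32 and 2.61 ± 0.46 and edgeR adjusted p of 0.00966, 0.00966 and 0.0382 in that order. The Slc15a2 and Trem3 calls were lost without 6-OHDA sample 1 or 2, that of Trem3 also without BIBO3304 sample 1, and that of Rbm47 without 6-OHDA sample 1. Beside them, the Ly6c-high monocyte list summed to 982, 1159 and 972 CPM in the 6-OHDA lungs, against 813, 746 and 908 CPM in the BIBO3304 lungs in the B cells, and neutrophil markers to 990.0, 945 and 258 CPM in the 6-OHDA lungs, against 306, 25.5 and 420.0 CPM in the BIBO3304 lungs, with 3 of their 11 genes at 0 in all samples. Their part in these calls was not tested. Slc15a2 was higher in 7 of the 8 types in which it passed the filter, with a median log2 fold change of 2.16 over types, and was called only in B cells. Trem3 was higher in all 6 types in which it passed the filter, without overlap in 4, with a median log2 fold change of 0.78. Its 2 calls were in B cells and interstitial macrophages.

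In ciliated cells, 3 genes were higher and 1 lower. Ccn1 (CYR61), a matrix-associated signalling protein, had 178, 224 and 429.8 CPM in the 6-OHDA lungs, against 50.3, 16.9 and 62.1 CPM in the BIBO3304 lungs. Errfi1, a feedback inhibitor of the EGF receptor, had 268, 409 and 365 CPM in the 6-OHDA lungs, against 80.5, 101 and 69.1 CPM in the BIBO3304 lungs, and Tuft1 had 307, 383 and 339 CPM in the 6-OHDA lungs, against 121, 112 and 131 CPM in the BIBO3304 lungs. All 3 were higher without overlap, with log2 fold changes of 2.71 ± 0.46, 2.003 ± 0.30 and 1.49 ± 0.26 and edgeR adjusted p of 0.0104, 0.00698 and 0.0126. The Errfi1 call was lost without 6-OHDA sample 2 (edgeR adjusted p = 0.0508), and those of Ccn1 and Tuft1 without 6-OHDA sample 2 or 3; DESeq2 did not call Tuft1. Immediate early genes, which respond quickly to stimuli that include tissue dissociation, summed to 9963, 9428 and 12804 CPM in the 6-OHDA lungs, against 7516, 6516 and 8252 CPM in the BIBO3304 lungs in these cells, higher without overlap, and their part in the calls was not tested.

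Mir6236 had calls in 4 types, all lower in 6-OHDA lungs. The gene is named for 1 miRNA, whose mature sequence is shown to make clear what the counted RNA is named after. It is from RefSeq on GRCm38.p6, chr9:110281353-110281371, plus strand, with the seed, bases 2 to 8, in capitals.
mmu-miR-6236: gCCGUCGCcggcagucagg
The libraries were primed with oligo(dT) and random hexamers, so these are counts assigned to that gene and do not measure the mature miRNA. Which RNA they come from was not tested. In aCap endothelium, the cells of the thin gas-exchange capillaries, it had 2353, 2310.2 and 2260.3 CPM in the 6-OHDA lungs, against 5119.6, 4514 and 5828 CPM in the BIBO3304 lungs. Neutrophils had 1558, 2144 and 2054 CPM in the 6-OHDA lungs, against 6766, 3899 and 4419.6 CPM in the BIBO3304 lungs. The log2 fold changes were -1.16 ± 0.17 in aCap endothelium, -1.43 ± 0.23 in ciliated cells, -1.43 ± 0.23 in adventitial fibroblasts and -1.39 ± 0.24 in neutrophils, with edgeR adjusted p of 0.00447, 0.00722, 0.0365 and 0.0406. Over all types it was lower in 18 of 19, without overlap in 16, and the exception was NK cells. The calls in adventitial fibroblasts and in neutrophils were lost without any 1 of the 6-OHDA samples or without BIBO3304 sample 1, that in aCap endothelium without 6-OHDA sample 1, and that in ciliated cells without 6-OHDA sample 2.

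Gm48099, a long noncoding RNA of unknown function, was called higher in B cells, NK cells and aCap endothelium, with log2 fold changes of 1.18 ± 0.21, 1.32 ± 0.20 and 1.03 ± 0.17 (edgeR adjusted p = 0.0406, 0.000282 and 0.00784). In NK cells it had 899, 1578 and 1308 CPM in the 6-OHDA lungs, against 536, 457 and 531 CPM in the BIBO3304 lungs, without overlap. It was above 0 in 19 of 19 types, as was Jund, a subunit of the AP-1 transcription factor, which had 0 calls by edgeR and an unadjusted p under 0.05 in 15 types. Without scaling beyond the total, Jund was above 0 in 18 of 19. The NK call of Gm48099 remained without each sample in turn, while the B cell call was lost without any sample but BIBO3304 3 and the aCap call without 6-OHDA sample 1 or 2 or BIBO3304 sample 2 or 3. Both genes were followed over types after their values were seen.

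**Figure D5:**
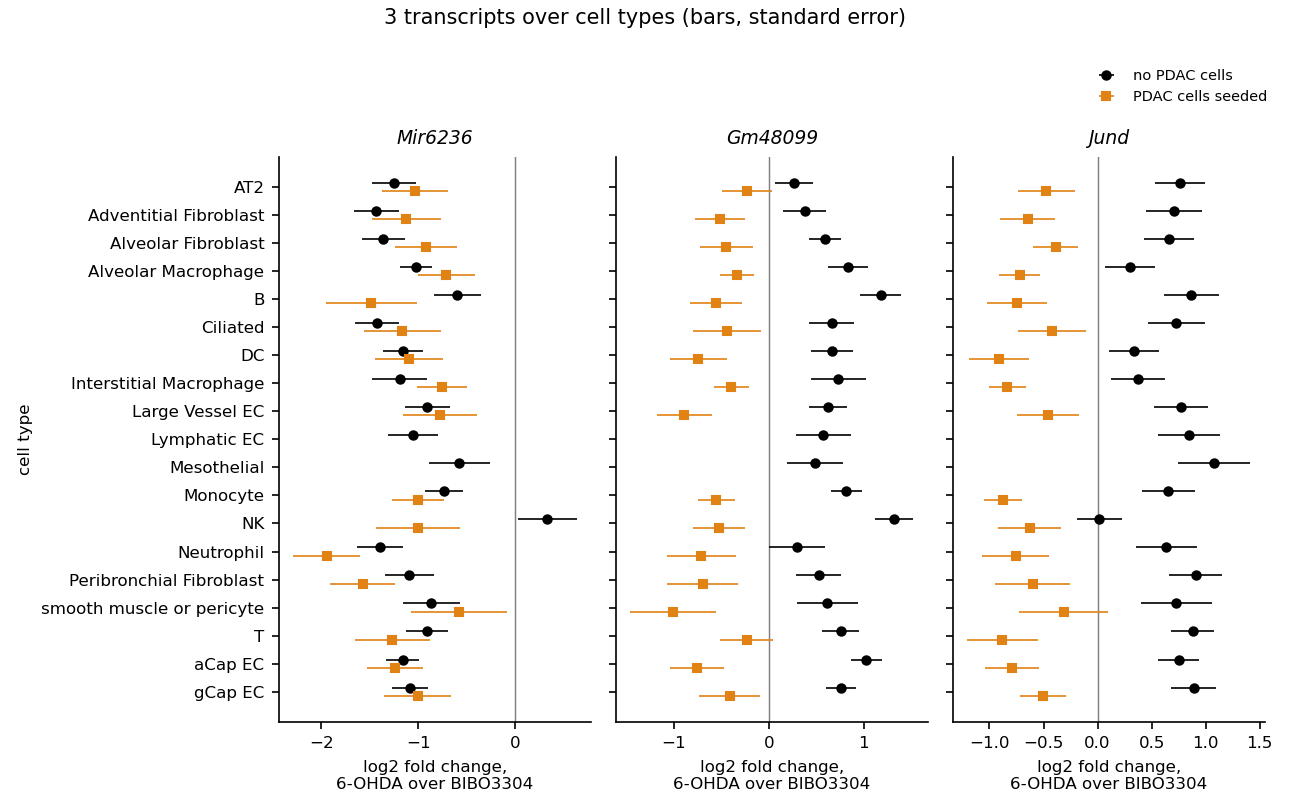
Log2 fold change of 6-OHDA over BIBO3304 (x axis) with its standard error for 3 transcripts in each cell type (y axis), black circles without and orange squares with PDAC cells. Mir6236 lies below 0 in both settings but for NK cells without PDAC cells, while Gm48099 and Jund lie above 0 without PDAC cells (Jund in 18 of 19 types without scaling beyond the total) and below 0 with them.

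Of 32 gene lists, 5 held a call by edgeR: adrenergic genes, clock activators, clock repressors, glucocorticoid-induced genes (Errfi1 in ciliated cells) and matrix genes (Fn1 and Thbs1 in interstitial macrophages, Ccn1 in ciliated cells). In the matrix list edgeR called 3 higher and 0 lower and DESeq2 2 higher and 2 lower among 178 tests, and in the glucocorticoid list edgeR called 1 higher and 0 lower and DESeq2 4 higher and 0 lower among 184. For the lists without a call by edgeR, the unadjusted p is given beside the background, where 4.64% of all tests had an unadjusted p under 0.05 and were higher and 4.21% were lower. Cytosolic ribosomal protein genes, the protein part of the translation machinery, leaned to one side: 228 of 931 tests were higher and 0 lower at an unadjusted p under 0.05, with 0 calls by edgeR and 2 higher by DESeq2. Their median was above 0 in 19 of 19 types, from 0.26 in the type with the lowest to 0.83 in that with the highest. In alveolar fibroblasts they summed to 4309.9, 5186 and 5654 CPM in the 6-OHDA lungs, against 4621, 1959 and 4329 CPM in the BIBO3304 lungs, and the groups overlapped. BIBO3304 sample 2, which had the most transcripts per cell, was the lowest. With PDAC cells, where the 6-OHDA cells were the deeper ones, the median was below 0 in 18 of 18 types (437 of 1040 tests lower and 5 higher at an unadjusted p under 0.05). The part of depth per cell in this was not tested.

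Nuclear-encoded subunits of oxidative phosphorylation, which build the respiratory chain, had 79 of 469 tests higher and 1 lower at an unadjusted p under 0.05, with a median log2 fold change of 0.31. Immediate early genes had 78 of 347 higher and 13 lower (median 0.25), though in interstitial macrophages their median was -0.34. Heat shock chaperones had 12 of 207 higher and 1 lower. None of these 3 lists had an edgeR call, and DESeq2 made 3 calls, all of immediate early genes and all higher. Genes of VEGF and endothelial signalling ran the other way, with 2 of 117 tests higher and 20 lower, a median below 0 in 14 of 15 types, 0 edgeR calls and 2 DESeq2 calls, both lower.

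S and M phase genes had 11 of 71 tests higher and 1 lower at an unadjusted p under 0.05, with a median log2 fold change of 0.33. The type I interferon list had 13 of 181 higher and 4 lower, and NRF2 targets, which respond to oxidants, 20 of 129 higher and 7 lower. Surfactant genes had 3 of 113 higher and 6 lower. Genes induced by cyclic AMP, the messenger of beta receptors, had 17 of 214 higher and 13 lower with a median of 0.01. Over the 26 tested lists with no edgeR call, DESeq2 made 14 calls in 9 of them.

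The same contrast could be set beside that in lungs seeded with PDAC cells, where it rests on 2 lungs a group and other samples. There, 226 of 91120 tests were called (0.248%), and without 1 lung the count lay between 65 and 1587, moving over 1.5 times with each of the 4 lungs. Of the 67 calls without PDAC cells, 60 could be tested with them: 46 had the same direction and 9 were called again. The share of all tests with the same direction in both settings was not counted, so the 46 have no background here. A test of the difference between the contrasts called 15 of 95418 (0.0157%), and 2 of the 67 calls were among them; without 1 of the 10 lungs it called 2 to 472, moving over 1.5 times with each.

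Slc6a2 in large-vessel endothelium, with levels scaled separately from those above, had 536 and 595 CPM in 6-OHDA lungs, against 857 and 848 CPM in BIBO3304 lungs. Its log2 fold change was -0.60 (edgeR adjusted p = 0.994) and the difference from the contrast without PDAC cells was 1.34 ± 0.34 (edgeR adjusted p = 0.554). Npas2 in alveolar fibroblasts had 10.7 and 15.4 CPM in 6-OHDA lungs, against 14.8 and 36.0 CPM in BIBO3304 lungs, a log2 fold change of -0.74 (edgeR adjusted p = 0.652), and Arntl there 18.9 and 41.0 CPM in 6-OHDA lungs, against 38.6 and 61.0 CPM in BIBO3304 lungs. The groups overlapped for both genes. The difference between contrasts did not pass for either gene (edgeR adjusted p = 0.279 for Npas2 and 0.29 for Arntl).

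In interstitial macrophages, 39 of the 42 calls could be tested with PDAC cells, 30 had the same direction and 7 were called again. Over all 7243 genes tested in this type with PDAC cells, 10 were called higher and 67 lower. The share of all its genes with the same direction in both settings was not counted. Fn1 had 1441 and 1514 CPM in 6-OHDA lungs, against 449.8 and 564 CPM in BIBO3304 lungs (log2 fold change 1.54 ± 0.18, edgeR adjusted p = 2.05e-05). Thbs1 and Fam20a were also higher there, and Selenop, Stab1, Plekhg5 and Slco2b1 lower, with log2 fold changes of 0.77, 2.10, -1.40, -1.18, -2.01 and -2.52. Fn1 was also called higher in monocytes of the seeded lungs and Selenop lower in their cancer cells, at 0.96 and -1.15. The 67 lower genes included Sftpc and Chil3, which were highest in AT2 cells and alveolar macrophages without PDAC cells. In the seeded lungs alveolar macrophage markers had a median below 0 in 16 of 16 types. Mir6236 was lower in 18 of 18 types with PDAC cells, the cancer cells among them, with a median log2 fold change of -1.02 beside -1.08 without them. Gm48099 and Jund each had a log2 fold change below 0 in 18 of 18 types, the opposite of their direction without PDAC cells. Whether depth per cell, whose order between the groups was also opposite, had a part in this was not tested.

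With PDAC cells seeded, alveolar macrophages made up 14.3 and 13.6% in 6-OHDA lungs, against 31.3 and 31.3% in BIBO3304 lungs. The log2 ratio of -1.16 ± 0.24 did not pass there (edgeR adjusted p = 0.156), but its difference from the ratio without PDAC cells was -1.49 ± 0.30 and passed (edgeR adjusted p = 0.00669). No share passed by edgeR within the PDAC lungs, and 2 of 22 types had an unadjusted p under 0.05. Neutrophils made up 3.19 and 3.03% in 6-OHDA lungs, against 0.604 and 1.41% in BIBO3304 lungs, a log2 ratio of 1.63 ± 0.48 (edgeR adjusted p = 0.271), in the same direction as without PDAC cells. gCap endothelium made up 11.4 and 10.5% in 6-OHDA lungs, against 9.31 and 6.78% in BIBO3304 lungs, and the difference from the ratio without PDAC cells was 1.04 ± 0.32 (edgeR adjusted p = 0.0785). Club cells made up 0.303 and 0.171% in 6-OHDA lungs, against 0.201 and 0.190% in BIBO3304 lungs, with overlap and a log2 ratio of 0.29, and the difference from the ratio without PDAC cells was -1.69 ± 0.58 (edgeR adjusted p = 0.0961). Peribronchial fibroblasts made up 1.11 and 2.06% in 6-OHDA lungs, against 1.30 and 1.01% in BIBO3304 lungs, also with overlap, at a log2 ratio of 0.45 and a difference of 1.14 ± 0.45 (edgeR adjusted p = 0.0961). Large-vessel endothelium made up 2.10 and 1.11% in 6-OHDA lungs, against 2.69 and 1.77% in BIBO3304 lungs, a log2 ratio of -0.47 with overlap.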

How the data were processed

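Lung cells were sorted live, fixed and barcoded by split-pool indexing with oligo(dT) and random hexamer primers, per the labels' protocols. The deposited matrix holds raw counts of transcripts per gene and cell, not normalised by the authors, and the deposited cell table gives sample, treatment, seeding state and cell type. The submitters' processing notes list Seurat 5.3.0 and the build mm39; aligner and cell filters were not given in the sources read. The percent of mitochondrial counts per cell is as deposited by the authors, with a maximum of 9.99 percent, and the fewest genes in a cell were 301. Cell types are the authors' own. Counts were summed per sample and type, samples with under 20 cells of a type were left out of that type, and 2 samples a group were needed, which left out AT1 and club cells. Genes passed filterByExpr, libraries were scaled by TMM, and 6-OHDA over BIBO3304 was fitted on the 6 samples with edgeR 4.0.16 in R 4.3.3 (quasi-likelihood test), with Benjamini-Hochberg adjustment inside each type. CPM are relative to the TMM-scaled library. Shares were tested with the same model on cell numbers. Log2 fold changes carry their standard error after the sign. It was derived from the test, as the absolute log2 fold change divided by the square root of edgeR's F statistic. DESeq2 1.42.0 was an alternative. The script was tested on simulated data. Named genes were, in the 4 types with most calls, the 3 largest rises and falls at a mean of 20 CPM or more, predicted and ribosomal genes left out; in other types the call with the smallest p; up to 6 genes called in at least 3 types; up to 3 calls of each list; and neuropeptide Y and adrenergic genes at 20 CPM or more, in their highest type. Some results under that rule are not reported here. Others are marked as taken up after their values were seen. Comparison, members and lists were chosen with earlier results of these data known. Deviations of same-numbered samples from their group means correlated at -0.22 to 0.20 over types. In ciliated cells all 3 pairs, at 0.03 to 0.04, lay above every crossed pair, at up to 0.008. No doublet caller was run; leaving out the 5% of cells with most genes in each sample stood in for it. Matches for promoter letters were sought on both strands.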

Additional observations from a re-analysis of the deposited data

Results flagged for a closer look

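The difference between 6-OHDA and BIBO3304 lungs was not the same with and without PDAC cells in some measures, by an edgeR test of the difference itself (contrast with PDAC cells less contrast without). For the share of alveolar macrophages it was -1.49 on the log2 scale. For Ccn1 in ciliated cells it was -4.70 ± 0.76 (edgeR adjusted p = 0.00169), and for Gm48099 in NK cells -1.86 ± 0.34 (edgeR adjusted p = 0.0188). Ccn1 did not pass the filter on low counts in the ciliated cells of the lungs with PDAC cells. Its contrast there was not tested by itself, and its difference rests on low counts in those lungs. In all, 15 genes passed that test, 11 of them in neutrophils. Lpcat2, an enzyme of platelet-activating factor synthesis, was among the 5 neutrophil genes with a positive difference, at 2.14 ± 0.44, and the ribosomal protein genes Rps12, Rps21, Rpl13 and Rpl14 were among the 6 with a negative one. The part of depth per cell, whose order between the groups was opposite in the seeded lungs, was not tested.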

How the results depend on the processing

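The number of calls without PDAC cells, 67, became 276 with no scaling beyond the total, 997 with no gene filter, 132 with all 15 samples in the fit, 185 with DESeq2, 14 with libraries thinned to the smallest and 15 when adjusted over all types together. It lay between 9 and 245 with 1 sample left out. The 42 calls in interstitial macrophages became 71, 156 and 77 under the first 3 of these, 3 when thinned and 1 when adjusted over all types, and 0 to 109 with 1 sample left out. Over alternatives, 0 of the 67 calls changed direction; 66 were kept under RLE factors, 61 with DESeq2, 12 of 58 when thinned and 6 without 6-OHDA sample 2. Leaving out scaling moved the median log2 fold change of all tests by 0.06. By type the shift was 0.12 in interstitial macrophages and ran from -0.14 in NK cells to 0.17 in ciliated cells. The contrast with PDAC cells ranged over 65 to 1587 calls and the test of the difference over 2 to 472 with 1 sample left out. The replicate numbers carry no stated pairing, and deviations of same-numbered samples correlated at -0.22 to 0.20 over types. With the replicate number as a block there were 91 calls in all, 21 in interstitial macrophages, and 5 shares passed. Of the 67 calls, that fit kept 40 and lost 27.

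Of the 5 shares that passed, 3 did so with TMM factors over types, 1 with all 15 samples, 3 with alveolar macrophages left out of the total, and 1 to 6 with 1 sample left out; club cells passed in every alternative run. With all 15 samples the log2 ratios were -0.82 for large-vessel endothelium, 0.77 for neutrophils, -0.59 for gCap endothelium and -0.69 for peribronchial fibroblasts, none of them past the threshold. With TMM factors gCap endothelium at -0.50 and peribronchial fibroblasts at -0.62 did not pass, nor at -0.51 and -0.61 with alveolar macrophages left out. With 1 sample left out the ratio lay between -0.99 and -0.68 for large-vessel endothelium, 0.58 and 0.91 for neutrophils, -0.66 and -0.53 for gCap endothelium, and -0.81 and -0.53 for peribronchial fibroblasts. Maoa in gCap endothelium and Npy1r in alveolar fibroblasts, neither of which had passed, changed sign: Maoa was 0.00451 without scaling, 0.0012 when thinned and -0.21 to 0.16 with 1 sample left out, and Npy1r 0.31 when thinned and -0.37 to 0.02 with 1 sample left out. The cause was not tested in any of these. Depth limits the types with few cells most: AT1 and club cells could not be tested for genes.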
